A study of Mus musculus with 16 samples.

Results

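The 43 genes described here encode the enzymes of glycolysis and of the pentose phosphate pathway, the carriers that move glucose and lactate across the plasma membrane, the enzymes that set glycolytic flux and the entry of pyruvate into mitochondria, and the hypoxia-inducible factor (HIF) subunits with the oxygen sensors and target genes linked to them. They were taken by symbol from a deposited table of log2 CPM, a count scaled to an effective library size and then logged. They occupy 44 of its 18990 rows, since *Aldoa* stands for 2 rows. The 16 bulk RNA-seq libraries come from primary mouse embryonic fibroblasts (MEFs) of wild-type BL6 mice, which were driven toward induced pluripotent stem cells at passage 2. The cells were transduced with lentiviruses for rtTA and for a doxycycline-inducible tet-STEMCCA cassette of Oct4, Sox2, Klf4 and c-Myc (OSKM). All were kept in reprogramming medium with doxycycline, chiron, Alk5i, ascorbic acid and LIF. Before induction they were transfected with 40 nM of pooled siRNAs, either non-targeting (nt, the control) or against *Wdr5* (a subunit of histone H3K4 methyltransferase complexes), *Brca1* or *Bard1* (the 2 partners of a ubiquitin ligase that acts in DNA repair). RNA was collected at day 3 and day 6 of induction, giving 8 groups of 2 libraries from independent experiments. siRNA acts for a limited time and the libraries are mixtures of cells that do and do not progress, so in these bulk values fewer cells of a type and less RNA per cell cannot be told apart.

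Glycolysis splits glucose into pyruvate in the cytosol, and lactate dehydrogenase turns pyruvate into lactate, which leaves through monocarboxylate transporters. The pentose phosphate pathway branches off at glucose 6-phosphate and yields NADPH and ribose 5-phosphate. HIF, a dimer of an oxygen-regulated alpha subunit and the constant partner ARNT, binds the core letters ACGTG near many glycolytic genes, while prolyl hydroxylases (the EGLN proteins) mark the alpha subunit for destruction when oxygen is present. A shift from oxidative metabolism to glycolysis is a known feature of reprogramming fibroblasts.

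To show which of the genes carry the HIF core letters at their start, the 250 bases before each start in RefSeq's promoter table (GRCm38.p6) were searched for ACGTG on both strands. Of the 43 symbols 40 had an entry, and 21 of these genes held the letters in at least 1 window (52.5%), against 18.5% of the 27025 genes in the table. They were found in 3 of 3 transporters, 6 of 7 hypoxia-inducible genes and 0 of 4 pentose phosphate genes. The longer E-box CACGTG, which contains the same letters, was present in 15% of the genes and in 6.86% of the table. A match is a description of the sequence and does not show binding. Only ACGTG was searched as the HIF core, so a gene without it is not shown to lack a HIF site. Of the members raised in all 3 knockdowns at day 3, *Hif1a*, *P4ha1* and *P4ha2* held the letters, and *Adm*, *Hk1*, *Ldhb* and *Taldo1* did not. Of those that fell in all 3, *Egln1* and *Slc16a1* held them, *Pfkp* and *Pdk1* did not, and *Slc2a3* had no entry. Only genes with the letters are printed. The 30 bases around the matches are printed for the 4 members with the letters that rose most in nt cells, *Slc16a3*, *Slc2a1*, *Ankrd37* and *Bnip3*, for *Pgk1*, and for 3 members that were raised by knockdown at day 3. Each runs 5′ to 3′ in the direction of the gene, with the matches to ACGTG or its reverse complement CACGT in capitals.

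Slc16a3 (chr11:120949034-120949063, plus strand): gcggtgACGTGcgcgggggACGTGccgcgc
Slc2a1 (chr4:119108697-119108726, plus strand): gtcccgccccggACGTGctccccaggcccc
Ankrd37 (chr8:45999851-45999880, minus strand): ggctgcacatgtcagtgtttgggtACGTGa
Bnip3 (chr7:138909597-138909626, minus strand): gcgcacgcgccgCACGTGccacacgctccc
Pgk1 (chrX:106186947-106186976, plus strand): aggACGTGacaaatggaagtagCACGTctc
P4ha1 (chr10:59323266-59323295, plus strand): ggtgtgacagagcgCACGTagcgagggctg
P4ha2 (chr11:54100834-54100863, plus strand): tgtgcatcgcatACGTGcagcgcgtggcgg
Car9 (chr4:43506996-43507025, plus strand): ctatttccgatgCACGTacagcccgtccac

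The libraries held 11169738 to 26832534 reads, and a level of 3 reads equals 0.115 to 0.260 CPM, depending on the library. Of the 44 rows all but 1 had a mean log2 CPM of at least 0 and these were tested together with the other genes at that level, 14028 in all. The row left out is a second *Aldoa* row at 0.572 to 1.81 CPM. The targeted transcripts changed at day 3 by −1.31 (*Wdr5*), −1.57 (*Brca1*) and −0.62 (*Bard1*) on the log2 scale (limma, Benjamini-Hochberg adjusted p = 3.02e-06, 7.90e-05 and 0.0422). For *Bard1* the adjusted p rose to between 0.124 and 0.214 when any of the 4 nt and siBard1 libraries was left out. None of these transcripts passed at day 6 (changes of −0.27, 0.01 and 0.11). All 8 fibroblast markers were detected and summed to 5797 and 6725 CPM in nt cells at day 3, whereas the 4 macrophage markers with a row summed to 7.05 to 22.7 CPM and the 4 endothelial ones to 15.8 to 59.6 CPM over all libraries, with *Cdh5* at 0 reads in both siBard1 libraries of day 3. Of the 7 proliferation markers 7, 7 and 1 were lower in siWdr5, siBrca1 and siBard1 at day 3, and they summed to 1343 and 1315 CPM in nt, 774 and 832 CPM in siWdr5, 759 and 401 CPM in siBrca1 and 1066 and 1121 CPM in siBard1. Of the fibroblast markers 8, 4 and 0 were higher and 0, 1 and 1 lower, with sums of 11448 and 11769.9 CPM in siWdr5, 9857 and 8569 CPM in siBrca1 and 8631 and 7409.6 CPM in siBard1. From day 3 to day 6 in nt cells 6 of 6 epithelial markers rose, from sums of 67.1 and 44.9 to 563 and 762 CPM, while 5 of the 7 proliferation markers fell. The fibroblast markers summed to 3942 and 3915 CPM in nt at day 6, and single markers moved both ways. *Col1a1* went from 3312 and 4043 to 1048 and 1016 CPM, and *Dcn* from 31.7 and 30.4 to 301 and 291 CPM. The part of proliferation, of fibroblast and of epithelial RNA in the results that follow was not tested.

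Depletion of *Wdr5* at day 3 raised 12 and lowered 5 of the 43 members relative to the nt control at adjusted p < 0.05, where 18.3% of all genes tested were higher and 16.8% lower. *Brca1* depletion raised 17 and lowered 9, against 25.4% and 21.8% of all genes. *Bard1* depletion raised 8 and lowered 7, against 8.67% and 5.87%. The median log2-fold change of the members was 0.04, 0.13 and −0.11 in the 3 knockdowns, beside −0.04, 0.00 and −0.02 for all genes. With quantile normalization of the libraries the members split into 13 higher and 10 lower in siWdr5, 15 and 14 in siBrca1, and 9 and 12 in siBard1. The counts also rested on single libraries. For siWdr5 the 17 calls became 10 without siWdr5 replicate 2 and 11 without nt replicate 1. For siBrca1 the 26 calls became 17 without either nt library. For siBard1 the 15 calls became 3 without nt replicate 1 or siBard1 replicate 2, 4 without nt replicate 2 and 6 without siBard1 replicate 1. Of these calls 9 (siWdr5), 15 (siBrca1) and 3 (siBard1) passed in every refit, the last being *Adm*, *Pdk1* and *Pfkp*. The 3 comparisons share the nt libraries and are not independent of each other. The heat map of the members by role shows these calls: *Slc2a3*, *Slc16a1*, *Pfkp*, *Pdk1* and *Egln1* fell in all 3 knockdowns, whereas *Hk1*, *Ldhb*, *Taldo1*, *Hif1a*, *P4ha1*, *P4ha2* and *Adm* rose in all 3.

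**Figure D1:**
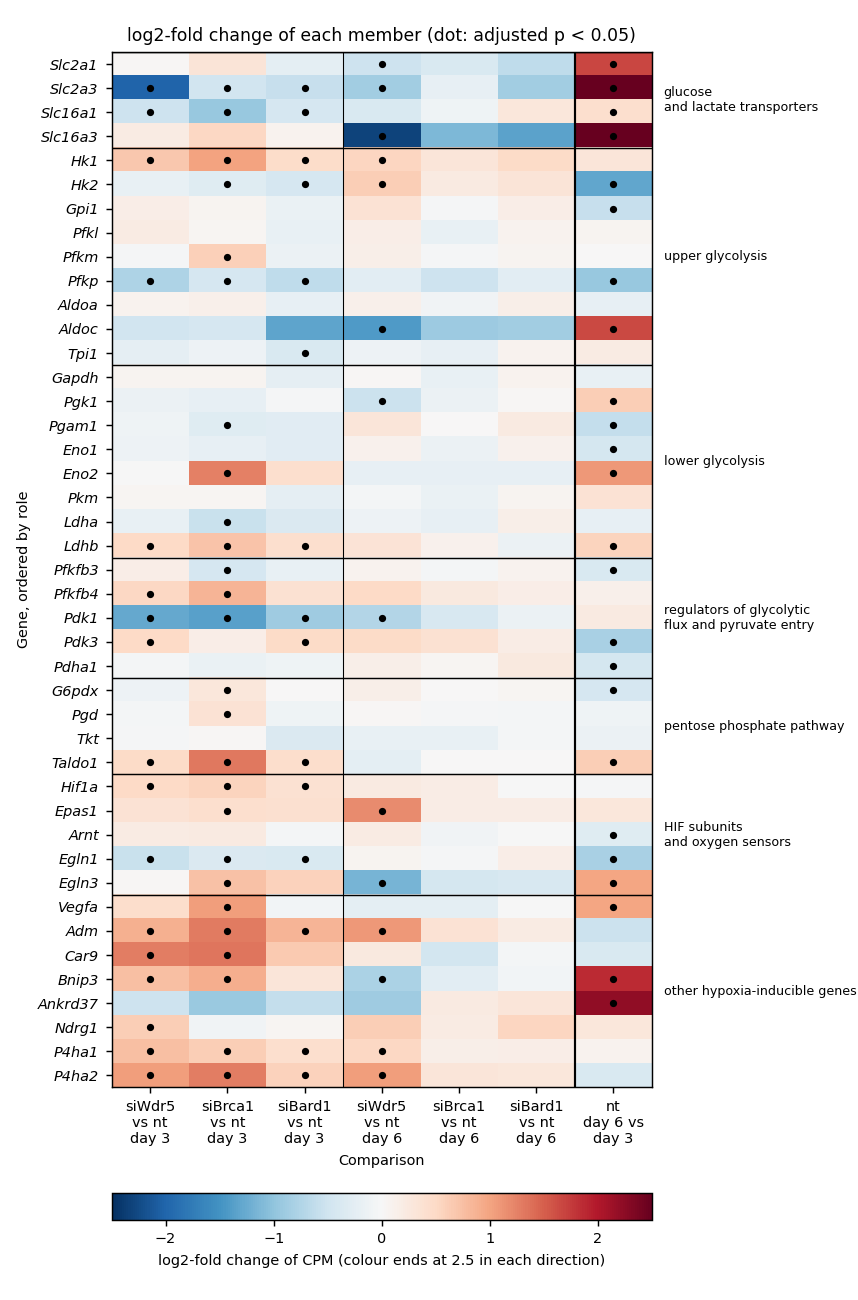
Colours give the log2-fold change of CPM for each of the 43 tested members (rows, by role) in 7 comparisons (columns), and a dot marks adjusted p < 0.05. The 3 day 3 columns have 17, 26 and 15 dots, the siBrca1 and siBard1 columns at day 6 have 0, and *Slc2a3* and *Slc16a3* are the darkest red cells in nt day 6 against day 3 (log2-fold changes of 3.85 and 3.64).

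In nt cells, day 6 differed from day 3 by 13 higher and 11 lower members, against 19% and 27.1% of all genes. The median of the members was 0.07 and that of all genes −0.07. Of the glucose and lactate transporters 4 of 4 were higher, where upper glycolysis had 1 of 9 higher and 3 lower, lower glycolysis 3 of 8 higher and 2 lower, the regulators 0 of 5 higher and 3 lower, and the hypoxia-inducible genes 3 of 8 higher. *Ankrd37*, counted among these last 3, passed the filter for testing only through its day 6 libraries. Of the 24 calls, 18 to 20 were left when a library was omitted and 16 passed in every refit. Quantile normalization gave 16 higher and 9 lower. Together the 44 rows took 0.788% and 0.796% of the reads of the nt libraries at day 3 and 0.886% and 0.899% at day 6. RNA that is carried over after ribosomal depletion (5 genes with a row) had 2 higher and 0 lower at day 6. Its sums were 8091 and 6029 CPM at day 3 and 23008 and 14530.3 CPM at day 6. Nearly all of each sum was the single gene *Rn7sk*, with 7853 and 5870 CPM at day 3 and 22790 and 14087 CPM at day 6. The sums thus do not describe ribosomal RNA. The part of these 5 genes was not tested.

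*Slc2a3* encodes GLUT3, a glucose transporter with high affinity that is typical of neurons and early embryonic cells. At day 3 it stood at 18.0 and 15.6 CPM in nt cells, 3.99 and 4.38 CPM in siWdr5, 12.0 and 12.0 CPM in siBrca1 and 10.1 and 12.6 CPM in siBard1. By day 6 its level had reached 201 and 291 CPM in nt cells, 146 and 121 CPM in siWdr5, 169 and 260.1 CPM in siBrca1 and 134 and 129 CPM in siBard1. Every day 6 library lay above every day 3 library, and within day 3 the siWdr5 libraries lay below all others. Its rise in nt cells, 3.85 (SE 0.19, adjusted p = 1.78e-08) on the log2 scale or 14.4-fold, was the largest of the members. In siWdr5 it fell by 2.00 (SE 0.17, adjusted p = 4.33e-06) at day 3, with a range of the adjusted p over the alternatives of 3.71e-08 to 0.00170. Its changes in siBrca1, −0.48 (adjusted p = 0.0317), and siBard1, −0.57 (adjusted p = 0.0395), at day 3 and in siWdr5 at day 6, −0.86 (adjusted p = 0.0204), passed as well. siWdr5 cells differed directly from siBrca1 cells, in which *Slc2a3* was higher by 1.52 (adjusted p = 1.32e-04), and from siBard1 cells, at −1.43 (adjusted p = 3.05e-04). Leaving out a library removed the call for siBrca1 at day 3 without nt replicate 1, nt replicate 2 or siBrca1 replicate 2 (adjusted p from 0.0614 to 0.232), and for siBard1 at day 3 without any 1 of the 4 libraries (adjusted p from 0.0612 to 0.285), and for siWdr5 at day 6 without nt replicate 2 or siWdr5 replicate 2 (adjusted p from 0.154 to 0.172).

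The more widely expressed glucose transporter GLUT1 is encoded by *Slc2a1*. Its day 3 values were 69.1 and 64.2 CPM in nt cells, 70.7 and 66.1 CPM in siWdr5, 72.8 and 94.4 CPM in siBrca1 and 63.8 and 50.0 CPM in siBard1. In the libraries of day 6 there were 188 and 239.7 CPM in nt cells, 162 and 136 CPM in siWdr5, 175 and 151 CPM in siBrca1 and 129 and 146 CPM in siBard1. It rose by 1.67 (SE 0.16, adjusted p = 1.98e-06) in nt cells from day 3 to day 6, and every day 6 library was again above every day 3 library. None of the 3 knockdowns passed for it at day 3 (adjusted p = 0.856 in siWdr5, 0.0809 in siBrca1 and 0.271 in siBard1). At day 6 the change in siWdr5 was −0.51 (adjusted p = 0.0379), without overlap with nt, and it was lost for siWdr5 at day 6 without nt replicate 1, nt replicate 2 or siWdr5 replicate 2 (adjusted p from 0.0559 to 0.261).

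*Slc16a3* encodes MCT4, the lactate exporter of glycolytic cells. It was low at day 3, with 2.51 and 2.02 CPM in nt cells, 3.50 and 1.93 CPM in siWdr5, 2.57 and 4.08 CPM in siBrca1 and 2.52 and 2.27 CPM in siBard1. The corresponding levels at day 6 were 21.7 and 36.3 CPM in nt cells, 9.17 and 3.50 CPM in siWdr5, 17.1 and 9.64 CPM in siBrca1 and 7.13 and 17.4 CPM in siBard1. The rise in nt cells was 3.64 (SE 0.47, adjusted p = 2.38e-05), or 12.5-fold. In siWdr5 cells at day 6 it was lower than in nt cells, at −2.31 (SE 0.50, adjusted p = 0.0128), with no overlap of the libraries. The change at day 6 differed from that at day 3 by −2.52 (adjusted p = 0.0446). The call did not hold for siWdr5 at day 6 without nt replicate 2 or siWdr5 replicate 2 (adjusted p from 0.0949 to 0.140), and for the difference between days in siWdr5 without any 1 of 7 of the 8 libraries (adjusted p from 0.0993 to 0.171). siBrca1 and siBard1 libraries at day 6 also lay below both nt libraries, at changes of −1.13 and −1.33 that did not pass (adjusted p = 0.618 and 0.295).

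MCT1, the carrier for both uptake and release of lactate, is the product of *Slc16a1*. It measured 249 and 219 CPM in nt cells, 155 and 171 CPM in siWdr5, 134 and 108 CPM in siBrca1 and 187 and 162 CPM in siBard1 at day 3. All 6 knockdown libraries were below both nt libraries. The falls were −0.52 (SE 0.12, adjusted p = 0.00587) in siWdr5, −0.95 (SE 0.12, adjusted p = 5.36e-05) in siBrca1 and −0.42 (SE 0.12, adjusted p = 0.0375) in siBard1, and siBrca1 was below siBard1, at −0.53 (adjusted p = 0.0110). This last call was lost for siBrca1 against siBard1 without siBrca1 replicate 2, siBard1 replicate 1 or siBard1 replicate 2 (adjusted p from 0.0527 to 0.0923). Day 6 values were 326 and 302 CPM in nt cells, 268 and 217 CPM in siWdr5, 281 and 304 CPM in siBrca1 and 355 and 414 CPM in siBard1. The rise in nt cells was 0.43 (adjusted p = 0.0181), and no knockdown passed at that day. Single libraries decided the call for siWdr5 at day 3 without nt replicate 1 or siWdr5 replicate 1 (adjusted p from 0.0770 to 0.0827), and for siBard1 at day 3 without any 1 of the 4 libraries (adjusted p from 0.0572 to 0.282), and for nt cells between the days without nt day 3 replicate 2 or nt day 6 replicate 1 (adjusted p from 0.112 to 0.151). The plot of the 4 carriers by library shows these levels.

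**Figure D2:**
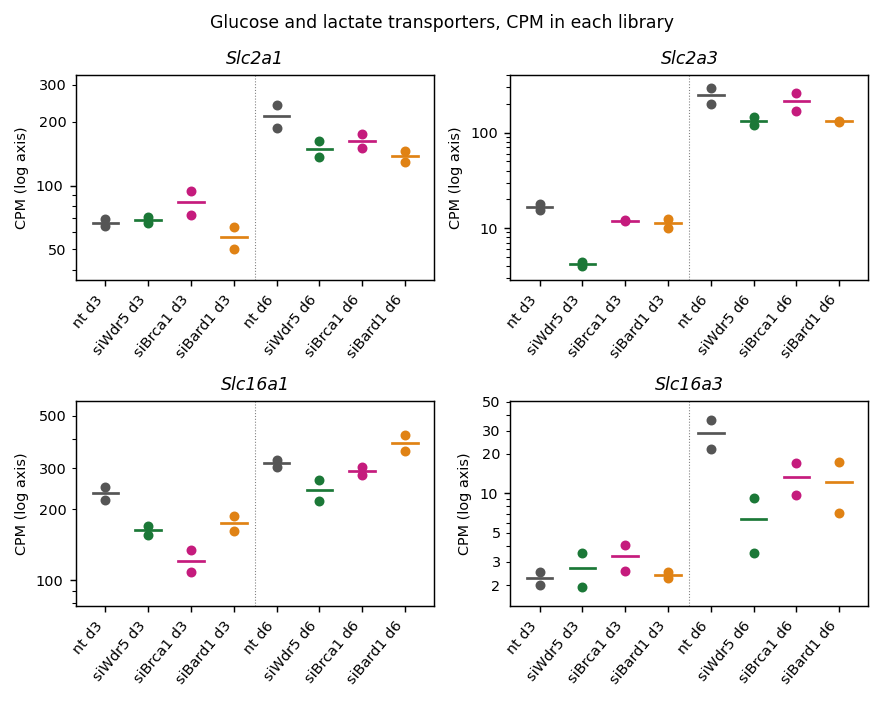
Points give the CPM of *Slc2a1*, *Slc2a3*, *Slc16a1* and *Slc16a3* in each library on a log axis, and bars the mean of the 2 libraries of a group. *Slc2a3* lies at 3.99 and 4.38 CPM in siWdr5 at day 3, below all other libraries, and all day 6 libraries of *Slc2a1* and *Slc2a3* lie above those of day 3.

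Hexokinase traps glucose in the cell, and its isoenzymes moved in opposite directions in siBrca1 and siBard1 at day 3. *Hk1*, the isoenzyme found in most tissues, measured 63.9 and 70.6 CPM in nt cells, 107 and 108 CPM in siWdr5, 116 and 157 CPM in siBrca1 and 99.6 and 86.3 CPM in siBard1 at day 3, with every knockdown library above both nt libraries. It rose by 0.68 (SE 0.13, adjusted p = 0.00183) in siWdr5, 1.01 (SE 0.13, adjusted p = 6.22e-05) in siBrca1 and 0.47 (SE 0.13, adjusted p = 0.0351) in siBard1. At day 6 it held 83.2 and 82.7 CPM in nt cells, 111 and 129 CPM in siWdr5, 114 and 92.5 CPM in siBrca1 and 106 and 124 CPM in siBard1, and the siWdr5 rise was 0.53 (adjusted p = 0.0249). The call was lost for siBard1 at day 3 without any 1 of the 4 libraries (adjusted p from 0.0805 to 0.241), and for siWdr5 at day 6 without nt replicate 1, nt replicate 2 or siWdr5 replicate 2 (adjusted p from 0.113 to 0.188).

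*Hk2*, the inducible isoenzyme of muscle, fat and tumour cells, measured 195 and 208 CPM in nt cells, 169 and 186 CPM in siWdr5, 163 and 164 CPM in siBrca1 and 158 and 142 CPM in siBard1 at day 3. Here every knockdown library lay below both nt libraries, and the fall passed in siBrca1, −0.30 (adjusted p = 0.0271), and also in siBard1, −0.43 (adjusted p = 0.0150), whereas siWdr5 stood at −0.18 (adjusted p = 0.182). In nt cells *Hk2* fell by 1.31 (SE 0.11, adjusted p = 8.02e-07) from day 3 to day 6, the largest fall of the members. Its day 6 values were 76.2 and 86.8 CPM in nt cells, 116 and 133 CPM in siWdr5, 91.5 and 97.6 CPM in siBrca1 and 101 and 102 CPM in siBard1. All 6 knockdown libraries were then above nt, and siWdr5 was higher by 0.61 (adjusted p = 0.00926). The siWdr5 change in *Hk2* differed between the days by 0.79 (adjusted p = 0.0208), and the siBrca1 change by 0.52 (adjusted p = 0.0257). Leaving out a library removed the call for siBrca1 at day 3 without nt replicate 1 or nt replicate 2 (adjusted p from 0.0832 to 0.194), and for siBard1 at day 3 without nt replicate 1, nt replicate 2 or siBard1 replicate 2 (adjusted p from 0.0962 to 0.161), and for siWdr5 at day 6 without nt replicate 1, nt replicate 2 or siWdr5 replicate 2 (adjusted p from 0.0525 to 0.101), and for the difference between days in siWdr5 without any 1 of 6 of the 8 libraries (adjusted p from 0.0720 to 0.127), and for the difference between days in siBrca1 without any 1 of 5 of the 8 libraries (adjusted p from 0.0606 to 0.113).

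Phosphofructokinase commits the sugar to glycolysis, and its platelet isoform *Pfkp* fell in all knockdowns at day 3. Its values were 151 and 157 CPM in nt cells, 89.3 and 91.8 CPM in siWdr5, 108 and 124 CPM in siBrca1 and 101 and 98.7 CPM in siBard1, with nt above the rest. The falls were −0.77 (SE 0.10, adjusted p = 1.23e-04) in siWdr5, −0.41 (SE 0.10, adjusted p = 0.00476) in siBrca1 and −0.63 (SE 0.10, adjusted p = 0.00188) in siBard1. The *Pfkp* call was lost for siBrca1 at day 3 without nt replicate 2 (adjusted p = 0.0579). *Pfkp* also fell in nt cells to day 6 by 0.95 (SE 0.13, adjusted p = 4.26e-05), when it stood at 70.4 and 90.6 CPM in nt cells, 61.6 and 72.6 CPM in siWdr5, 60.1 and 52.2 CPM in siBrca1 and 63.0 and 70.6 CPM in siBard1.

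The muscle isoform *Pfkm* held 36.3 and 39.5 CPM in nt cells, 36.4 and 37.5 CPM in siWdr5, 50.3 and 64.5 CPM in siBrca1 and 36.2 and 32.0 CPM in siBard1 at day 3, so that both siBrca1 libraries were above all others. It rose in siBrca1 by 0.59 (adjusted p = 0.00250), with changes of −0.03 in siWdr5 and −0.15 in siBard1 that did not pass. siBrca1 was above siWdr5 by 0.62 (adjusted p = 0.00667) and above siBard1 by 0.74 (adjusted p = 0.00447). The *Pfkm* calls between knockdowns were lost for siBrca1 against siWdr5 without siWdr5 replicate 1 or siWdr5 replicate 2 (adjusted p from 0.0629 to 0.0836), and for siBrca1 against siBard1 without siBard1 replicate 2 (adjusted p = 0.0923). At day 6 *Pfkm* held 37.4 and 39.1 CPM in nt cells, 40.0 and 44.6 CPM in siWdr5, 38.5 and 36.1 CPM in siBrca1 and 39.5 and 40.6 CPM in siBard1, where only siBrca1 overlapped with nt. For this gene 10.2% of the exon bases are shared with another gene on the same strand. The liver isoform *Pfkl* held 62.9 and 63.7 CPM in nt cells, 72.2 and 72.9 CPM in siWdr5, 65.7 and 64.9 CPM in siBrca1 and 59.1 and 52.5 CPM in siBard1 at day 3, and 61.7 and 71.2 CPM in nt cells, 72.0 and 76.1 CPM in siWdr5, 67.5 and 50.2 CPM in siBrca1 and 63.6 and 78.5 CPM in siBard1 at day 6. It passed in none of the 3 comparisons with nt at day 3 and was 0.38 higher in siWdr5 than in siBard1 (adjusted p = 0.0385). The *Pfkl* call was lost for siWdr5 against siBard1 without siWdr5 replicate 1, siWdr5 replicate 2 or siBard1 replicate 2 (adjusted p from 0.170 to 0.232).

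Among the other enzymes of upper glycolysis, *Aldoc*, the aldolase of brain, was low in all groups. Its day 3 libraries held 3.43 and 1.33 CPM in nt cells, 1.69 and 1.40 CPM in siWdr5, 1.32 and 1.97 CPM in siBrca1 and 0.978 and 0.760 CPM in siBard1, and nt replicate 1 stood apart there. Day 6 libraries of *Aldoc* held 5.41 and 8.43 CPM in nt cells, 2.27 and 2.85 CPM in siWdr5, 3.69 and 3.51 CPM in siBrca1 and 3.29 and 4.14 CPM in siBard1. The rise in nt cells was 1.66 (SE 0.38, adjusted p = 0.00218). siWdr5 was lower at day 6, at −1.41 (SE 0.27, adjusted p = 0.00873), without overlap. The call did not hold for nt cells between the days without nt day 3 replicate 2 (adjusted p = 0.0564), and for siWdr5 at day 6 without nt replicate 2 or siWdr5 replicate 2 (adjusted p from 0.0710 to 0.0790).

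The remaining enzymes of upper glycolysis moved less. *Gpi1*, the isomerase of glucose 6-phosphate, held 336 and 348 CPM in nt cells at day 3 and 227 and 235 CPM at day 6, where it fell by 0.57 (adjusted p = 9.61e-04). *Tpi1*, triose phosphate isomerase, fell in siBard1 by 0.37 (adjusted p = 0.0313), from 299 and 305 CPM in nt to 252 and 215 CPM. The *Tpi1* call was lost for siBard1 at day 3 without nt replicate 1, nt replicate 2 or siBard1 replicate 2 (adjusted p from 0.174 to 0.203). *Aldoa*, the abundant aldolase of muscle and fibroblasts, held 625 and 636 CPM in nt cells, 648 and 685 CPM in siWdr5, 681 and 702 CPM in siBrca1 and 586 and 511 CPM in siBard1 at day 3. For day 6 the values were 552 and 542 CPM in nt cells, 567 and 621 CPM in siWdr5, 575 and 459 CPM in siBrca1 and 561 and 649.5 CPM in siBard1. It passed in no comparison with nt.

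In lower glycolysis 1 of 8 members passed in siWdr5, 4 in siBrca1 and 1 in siBard1 at day 3 in either direction, where 35%, 47.2% and 14.5% of all genes did. *Gapdh*, the dehydrogenase often used as a reference gene, ranged from 483 to 780.2 CPM and passed in no comparison with nt, nor did *Pkm*, pyruvate kinase, at 1321 to 2355 CPM. Reads of *Gapdh*, *Ldha*, *Eno1* and *Pgam1* may be split with their processed copies in the mouse genome, so their values are uncertain, and *Pkm* shares 15.3% of its exon bases with *Gm49759* on the same strand. With quantile normalization *Pkm* was lower in siBrca1, at −0.32 (adjusted p = 0.0308), against 0.05 without it. *Pgk1*, phosphoglycerate kinase, rose in nt cells by 0.61 (adjusted p = 0.00132), from 106 and 105 to 170.0 and 151 CPM. It was lower in siWdr5 at day 6, at −0.54 (adjusted p = 0.0292), with 118 and 103 CPM. *Pgam1*, phosphoglycerate mutase, fell in nt cells from 56.1 and 54.7 to 37.1 and 35.9 CPM, a change of −0.60 (SE 0.12, adjusted p = 5.92e-04), and in siBrca1 at day 3 it fell by 0.30 (adjusted p = 0.0465). *Eno1*, the ubiquitous enolase, held 601 and 597 CPM in nt cells, 544 and 553 CPM in siWdr5, 567 and 481 CPM in siBrca1 and 527 and 456 CPM in siBard1 at day 3. In the libraries of day 6 there were 449 and 432 CPM in nt cells, 473 and 471 CPM in siWdr5, 448 and 351 CPM in siBrca1 and 467 and 480.1 CPM in siBard1. Every library of day 6 was below both nt libraries of day 3, and the fall in nt cells was −0.44 (adjusted p = 0.00925). The *Pgk1* call was lost for siWdr5 at day 6 without nt replicate 1, nt replicate 2 or siWdr5 replicate 2 (adjusted p from 0.0912 to 0.207), and the *Pgam1* call for siBrca1 at day 3 without nt replicate 1, nt replicate 2 or siBrca1 replicate 2 (adjusted p from 0.145 to 0.278). That of *Eno1* was lost for nt cells between the days without nt day 3 replicate 1, nt day 3 replicate 2 or nt day 6 replicate 2 (adjusted p from 0.0503 to 0.0559).

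The neuronal enolase *Eno2* rose in siBrca1 cells at day 3. At day 3 it held 12.9 and 12.9 CPM in nt cells, 12.2 and 13.5 CPM in siWdr5, 24.1 and 39.5 CPM in siBrca1 and 17.7 and 17.0 CPM in siBard1. The corresponding levels at day 6 were 28.4 and 26.1 CPM in nt cells, 21.9 and 25.4 CPM in siWdr5, 25.2 and 22.2 CPM in siBrca1 and 24.0 and 23.5 CPM in siBard1. The siBrca1 libraries were above all others of day 3 and differed widely from each other. The rise was 1.26 (SE 0.19, adjusted p = 1.48e-04) relative to nt, 1.27 (adjusted p = 8.06e-04) relative to siWdr5 and 0.83 (adjusted p = 0.00983) relative to siBard1. Of these the last was lost for siBrca1 against siBard1 without siBrca1 replicate 2 or siBard1 replicate 2 (adjusted p from 0.0665 to 0.115). In nt cells *Eno2* rose by 1.08 (SE 0.18, adjusted p = 1.85e-04) to day 6, and there the siBrca1 change was −0.20, a difference from day 3 of −1.46 (SE 0.25, adjusted p = 0.00294).

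Lactate dehydrogenase has a subunit typical of muscle, *Ldha*, and a subunit typical of heart, *Ldhb*. *Ldha* measured 824 and 820.1 CPM in nt cells, 686 and 754 CPM in siWdr5, 649 and 485 CPM in siBrca1 and 689 and 590.1 CPM in siBard1 at day 3, every knockdown library being below nt. Day 6 libraries of *Ldha* held 711 and 711 CPM in nt cells, 653 and 647 CPM in siWdr5, 643 and 597 CPM in siBrca1 and 742 and 834 CPM in siBard1. Its fall passed in siBrca1, −0.55 (SE 0.14, adjusted p = 0.00501), and the changes in siWdr5 and siBard1 were −0.19 and −0.37 (adjusted p = 0.300 and 0.0904). The fall was lost for siBrca1 at day 3 without siBrca1 replicate 2 (adjusted p = 0.0572). *Ldhb* rose in siWdr5 by 0.49 (adjusted p = 0.00817), in siBrca1 by 0.71 (adjusted p = 4.37e-04) and in siBard1 by 0.43 (adjusted p = 0.0377), and in nt cells to day 6 by 0.56 (adjusted p = 0.00523). At day 3 its libraries held 27.4 and 29.4 CPM in nt cells, 38.6 and 41.3 CPM in siWdr5, 42.5 and 50.9 CPM in siBrca1 and 40.4 and 36.0 CPM in siBard1, without overlap of nt and the knockdowns. For day 6 the values were 43.2 and 40.6 CPM in nt cells, 46.3 and 60.3 CPM in siWdr5, 41.8 and 49.0 CPM in siBrca1 and 41.6 and 34.3 CPM in siBard1. The *Ldhb* calls were lost for siWdr5 at day 3 without nt replicate 1 or siWdr5 replicate 2 (adjusted p from 0.0750 to 0.0846), and for siBard1 at day 3 without any 1 of the 4 libraries (adjusted p from 0.0810 to 0.246).

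*Pdk1* encodes a pyruvate dehydrogenase kinase, which blocks the entry of pyruvate into the citric acid cycle. Its day 3 libraries read 48.9 and 49.6 CPM in nt cells, 20.0 and 20.3 CPM in siWdr5, 23.1 and 16.1 CPM in siBrca1 and 26.9 and 26.1 CPM in siBard1, and all knockdown libraries were below nt. The fall was −1.29 (SE 0.15, adjusted p = 4.70e-05) in siWdr5, −1.35 (SE 0.15, adjusted p = 1.89e-05) in siBrca1 and −0.90 (SE 0.15, adjusted p = 0.00232) in siBard1, and it passed in every refit of each. In the libraries of day 6 there were 52.4 and 63.2 CPM in nt cells, 40.2 and 30.0 CPM in siWdr5, 49.0 and 38.4 CPM in siBrca1 and 42.8 and 63.3 CPM in siBard1. siWdr5 was lower there too, at −0.73 (adjusted p = 0.0353), whereas the siBrca1 change of −0.41 did not pass and differed from that of day 3 by 0.95 (adjusted p = 0.0275). In nt cells between the days the difference was 0.22, which did not pass. Single libraries decided the call for siWdr5 at day 6 without nt replicate 1, nt replicate 2 or siWdr5 replicate 2 (adjusted p from 0.0840 to 0.269), and for the difference between days in siBrca1 without any 1 of 5 of the 8 libraries (adjusted p from 0.0750 to 0.150).

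The related kinase *Pdk3* measured 40.0 and 36.6 CPM in nt cells, 48.7 and 59.8 CPM in siWdr5, 44.3 and 41.8 CPM in siBrca1 and 50.4 and 55.8 CPM in siBard1 at day 3. All knockdown libraries were above nt, with a rise of 0.50 (adjusted p = 0.00780) in siWdr5 and 0.47 (adjusted p = 0.0242) in siBard1, and 0.17 in siBrca1 that did not pass. At day 6 it measured 24.0 and 19.8 CPM in nt cells, 27.6 and 33.7 CPM in siWdr5, 24.9 and 32.8 CPM in siBrca1 and 27.1 and 22.9 CPM in siBard1, and the fall in nt cells was −0.81 (SE 0.16, adjusted p = 7.09e-04). The day 3 calls were lost for siWdr5 at day 3 without nt replicate 2 or siWdr5 replicate 2 (adjusted p from 0.0840 to 0.110), and for siBard1 at day 3 without any 1 of the 4 libraries (adjusted p from 0.0572 to 0.197). *Pdha1*, the dehydrogenase subunit that these kinases phosphorylate, fell in nt cells by 0.43 (adjusted p = 0.00168).

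The bifunctional enzymes PFKFB3 and PFKFB4 set the level of fructose 2,6-bisphosphate, the main activator of phosphofructokinase. *Pfkfb4* rose in siWdr5 by 0.52 (adjusted p = 0.0209) and in siBrca1 by 0.86 (adjusted p = 6.59e-04). Its libraries held 7.46 and 6.98 CPM in nt cells, 9.65 and 11.2 CPM in siWdr5, 12.8 and 13.3 CPM in siBrca1 and 9.53 and 9.39 CPM in siBard1 at day 3, all knockdowns above nt, and 7.81 and 7.87 CPM in nt cells, 10.5 and 11.6 CPM in siWdr5, 11.7 and 7.35 CPM in siBrca1 and 10.2 and 7.58 CPM in siBard1 at day 6. *Pfkfb3* fell in siBrca1 by 0.42 (adjusted p = 0.00885), and was lower there than in siWdr5, at −0.59 (adjusted p = 0.00412). It held 34.9 and 33.7 CPM in nt cells, 37.4 and 40.0 CPM in siWdr5, 26.1 and 25.2 CPM in siBrca1 and 31.2 and 29.2 CPM in siBard1 at day 3, so that siWdr5 lay above nt and siBrca1 below. The corresponding levels at day 6 were 25.2 and 27.2 CPM in nt cells, 26.3 and 29.8 CPM in siWdr5, 25.5 and 25.1 CPM in siBrca1 and 26.4 and 29.4 CPM in siBard1. In nt cells *Pfkfb3* fell to day 6 by 0.39 (adjusted p = 0.0111). The *Pfkfb4* call was lost for siWdr5 at day 3 without nt replicate 1, nt replicate 2 or siWdr5 replicate 2 (adjusted p from 0.0808 to 0.152). The *Pfkfb3* call in siBrca1 was lost without either nt library (adjusted p up to 0.0832). Its other calls were lost for siBrca1 against siWdr5 without siWdr5 replicate 2 (adjusted p = 0.0615), and for nt cells between the days without nt day 3 replicate 1 or nt day 6 replicate 1 (adjusted p from 0.0739 to 0.0854).

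**Figure D3:**
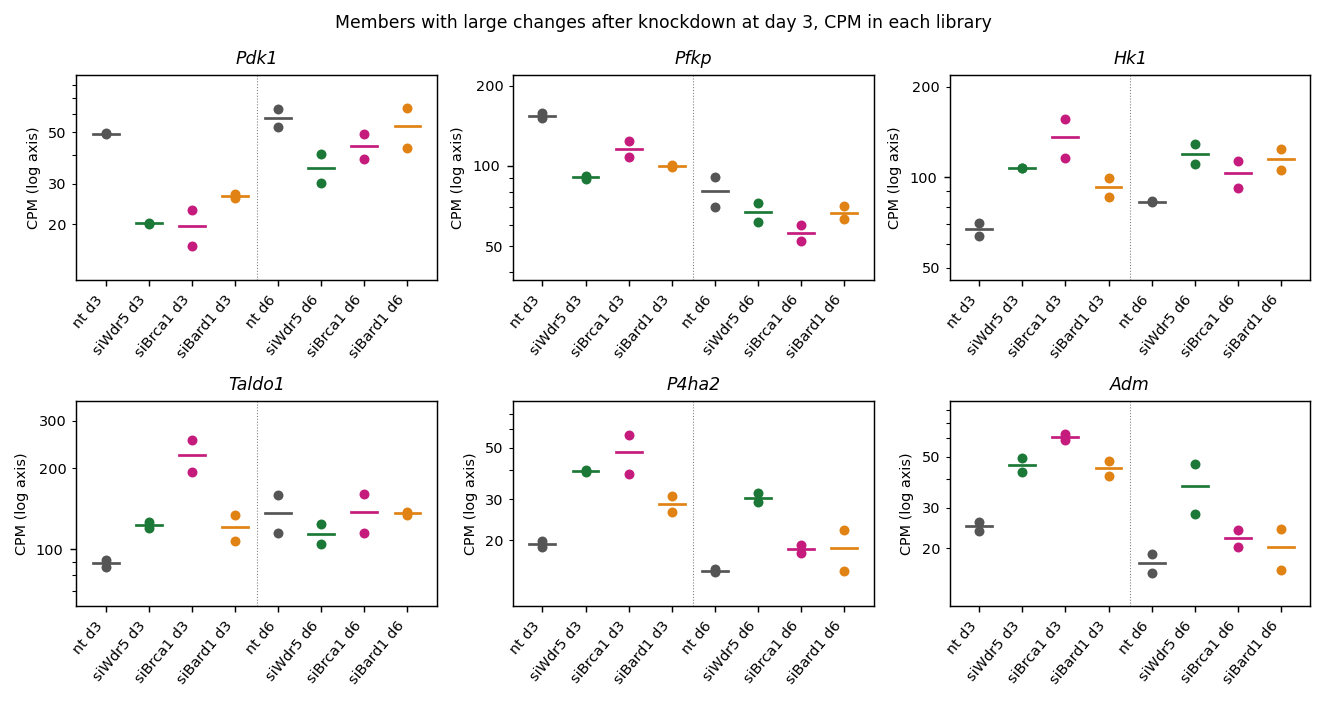
Points give the CPM of 6 members in each library on a log axis, and bars the mean of the 2 libraries of a group. At day 3 every knockdown library lies below nt for *Pdk1* and *Pfkp* and above nt for *Hk1*, *Taldo1*, *P4ha2* and *Adm*.

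In the pentose phosphate pathway, *Taldo1*, the transaldolase of the non-oxidative branch, rose in each knockdown. At day 3 the libraries held 86.0 and 91.4 CPM in nt cells, 120.4 and 126 CPM in siWdr5, 194 and 254 CPM in siBrca1 and 134 and 107 CPM in siBard1, and the siBrca1 libraries were above all others. The rise was 1.32 (SE 0.14, adjusted p = 9.74e-06) in siBrca1, 0.48 (adjusted p = 0.0155) in siWdr5 and 0.43 (adjusted p = 0.0478) in siBard1, and siBrca1 exceeded siWdr5 by 0.85 (adjusted p = 0.00127) and siBard1 by 0.89 (adjusted p = 0.00373). The *Taldo1* calls were lost for siWdr5 at day 3 without any 1 of the 4 libraries (adjusted p from 0.0560 to 0.111), and for siBard1 at day 3 without any 1 of the 4 libraries (adjusted p from 0.0519 to 0.276). A further *Taldo1* call was lost for siBrca1 against siBard1 without siBard1 replicate 2 (adjusted p = 0.0923). At day 6 the libraries held 159 and 114 CPM in nt cells, 105 and 124 CPM in siWdr5, 161 and 115 CPM in siBrca1 and 134 and 138 CPM in siBard1. The siBrca1 change there was 0.01, and its difference from that at day 3 was −1.31 (SE 0.26, adjusted p = 0.00405).

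*G6pdx* and *Pgd*, the NADPH-producing dehydrogenases of the oxidative branch, rose in siBrca1 by 0.28 (adjusted p = 0.0343) and 0.36 (adjusted p = 0.0165), from 193 and 184 and 459.9 and 429.7 CPM in nt to 222 and 235 and 542 and 603 CPM. Neither call passed after quantile normalization or without siBrca1 replicate 2 or either nt library. *Tkt*, transketolase, did not pass against nt in any knockdown (changes of −0.03, 0.02 and −0.36). None of the 4 genes passed in any knockdown at day 6.

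Of the HIF subunits, *Hif1a* rose at day 3 in siWdr5 by 0.49 (adjusted p = 0.00576), in siBrca1 by 0.56 (adjusted p = 0.00152) and in siBard1 by 0.38 (adjusted p = 0.0470). Its libraries held 108 and 100.2 CPM in nt cells, 136 and 157 CPM in siWdr5, 139 and 169.7 CPM in siBrca1 and 133 and 137 CPM in siBard1, and all knockdown libraries were above nt. Day 6 libraries of *Hif1a* held 108 and 95.7 CPM in nt cells, 108 and 129.8 CPM in siWdr5, 101 and 132 CPM in siBrca1 and 103 and 99.9 CPM in siBard1. Leaving out a library removed the call for siWdr5 at day 3 without nt replicate 2 or siWdr5 replicate 2 (adjusted p from 0.0652 to 0.0830), and for siBard1 at day 3 without any 1 of the 4 libraries (adjusted p from 0.115 to 0.274). These are RNA levels, whereas the protein is regulated by oxygen.

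*Epas1*, which encodes HIF-2 alpha, measured 16.2 and 15.7 CPM in nt cells, 20.6 and 20.2 CPM in siWdr5, 22.7 and 19.9 CPM in siBrca1 and 22.2 and 20.0 CPM in siBard1 at day 3. For day 6 the values were 17.6 and 21.5 CPM in nt cells, 42.1 and 45.9 CPM in siWdr5, 19.7 and 24.7 CPM in siBrca1 and 24.4 and 19.8 CPM in siBard1. The siWdr5 libraries of day 6 were above every other library, and the rise there was 1.18 (SE 0.17, adjusted p = 0.00362), against 0.36 at day 3. The difference between the days was 0.82 (adjusted p = 0.0443). In siBrca1 it rose at day 3 by 0.42 (adjusted p = 0.0203). The call did not hold for siWdr5 at day 6 without siWdr5 replicate 2 (adjusted p = 0.0632), and for siBrca1 at day 3 without nt replicate 1, nt replicate 2 or siBrca1 replicate 1 (adjusted p from 0.0869 to 0.114), and for the difference between days in siWdr5 without any 1 of the 8 libraries (adjusted p from 0.0567 to 0.162). *Arnt*, the shared partner, fell in nt cells to day 6 by 0.31 (adjusted p = 0.0255), a call lost for nt cells between the days without any 1 of the 4 libraries (adjusted p from 0.0552 to 0.144), and passed against nt in no knockdown.

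Of the oxygen sensors, *Egln1* (PHD2), the main HIF prolyl hydroxylase, held 54.0 and 52.5 CPM in nt cells, 36.4 and 36.5 CPM in siWdr5, 44.0 and 39.5 CPM in siBrca1 and 44.0 and 38.1 CPM in siBard1 at day 3. The knockdown libraries were all below nt, and the falls were −0.55 (adjusted p = 0.00289) in siWdr5, −0.35 (adjusted p = 0.0230) in siBrca1 and −0.38 (adjusted p = 0.0444) in siBard1. In nt cells it fell to 34.6 and 26.6 CPM at day 6, a change of −0.81 (SE 0.14, adjusted p = 3.31e-04). Single libraries decided the call for siBrca1 at day 3 without nt replicate 1, nt replicate 2 or siBrca1 replicate 2 (adjusted p from 0.0936 to 0.138), and for siBard1 at day 3 without any 1 of the 4 libraries (adjusted p from 0.0518 to 0.249). *Egln3* (PHD3), itself a HIF target, rose in nt cells by 0.98 (adjusted p = 0.0189), from 4.29 and 5.21 to 8.77 and 9.94 CPM. It rose in siBrca1 at day 3 by 0.73 (adjusted p = 0.0122), to 6.85 and 8.93 CPM, and was lower in siWdr5 at day 6, at −1.17 (adjusted p = 0.0446) and 5.31 and 3.27 CPM. The *Egln3* calls were lost for siBrca1 at day 3 without nt replicate 1 or siBrca1 replicate 2 (adjusted p from 0.0848 to 0.116), and for nt cells between the days without nt day 3 replicate 1, nt day 6 replicate 1 or nt day 6 replicate 2 (adjusted p from 0.0524 to 0.117), and for siWdr5 at day 6 without nt replicate 1, nt replicate 2 or siWdr5 replicate 2 (adjusted p from 0.128 to 0.313).

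Of the other hypoxia-inducible genes, which belong to none of the earlier roles, 6 of 8 were higher at day 3 in siWdr5, 6 of 8 in siBrca1 and 3 of 8 in siBard1, and 0 were lower in each. Of all genes 18.3%, 25.4% and 8.67% were higher. The median change of the group was 0.75, 0.97 and 0.37, beside −0.04, 0.00 and −0.02 for all genes. The wider list of 22 HIF-inducible members, which takes in glycolytic genes and carriers, was mixed: 7 were higher and 3 lower in siWdr5 (all genes 18.3% and 16.8%), 8 and 6 in siBrca1 (25.4% and 21.8%), and 3 and 4 in siBard1 (8.67% and 5.87%), with medians of 0.06, 0.02 and −0.12. For the 8 genes these day 3 counts were unchanged when the libraries were centred on their median genes or quantile-normalized. They were less stable when a single library was left out. In siBard1 only the *Adm* call of the 8 genes passed in every refit, and in siWdr5 those of *Bnip3* and *Ndrg1* did not. The siBrca1 calls of the 8 genes all did. In nt cells to day 6 the list of 22 had 9 higher and 4 lower, against 19% and 27.1% of all genes.

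*P4ha1* and *P4ha2* encode the catalytic subunits of collagen prolyl 4-hydroxylase, which stabilizes collagen. *P4ha2* measured 18.6 and 19.9 CPM in nt cells, 39.2 and 40.0 CPM in siWdr5, 38.6 and 56.9 CPM in siBrca1 and 31.1 and 26.3 CPM in siBard1 at day 3. In the libraries of day 6 there were 14.5 and 15.0 CPM in nt cells, 29.1 and 31.9 CPM in siWdr5, 19.1 and 17.5 CPM in siBrca1 and 22.2 and 14.7 CPM in siBard1. The knockdown libraries of day 3 and the siWdr5 libraries of day 6 lay above nt of the same day. Its rise was 1.04 (SE 0.16, adjusted p = 3.46e-04) in siWdr5, 1.28 (SE 0.16, adjusted p = 4.19e-05) in siBrca1, 0.57 (SE 0.16, adjusted p = 0.0326) in siBard1 and 1.04 (SE 0.19, adjusted p = 0.00700) in siWdr5 at day 6. *P4ha1* rose in the same 4 comparisons, by 0.75 (adjusted p = 3.62e-04), 0.61 (adjusted p = 7.91e-04), 0.42 (adjusted p = 0.0300) and 0.52 (adjusted p = 0.0193), with 42.5 and 48.0 CPM in nt cells, 73.2 and 78.6 CPM in siWdr5, 65.6 and 72.4 CPM in siBrca1 and 64.9 and 56.4 CPM in siBard1 at day 3. At day 6 *P4ha1* held 46.1 and 49.9 CPM in nt cells, 62.2 and 76.3 CPM in siWdr5, 51.8 and 54.2 CPM in siBrca1 and 55.5 and 52.8 CPM in siBard1, and all knockdown libraries of both days were above nt of the same day. The calls of *P4ha2* were lost for siBard1 at day 3 without any 1 of the 4 libraries (adjusted p from 0.0852 to 0.191), and for siWdr5 at day 6 without nt replicate 2 or siWdr5 replicate 2 (adjusted p from 0.0548 to 0.0866). Those of *P4ha1* were lost for siBard1 at day 3 without any 1 of the 4 libraries (adjusted p from 0.0506 to 0.264), and for siWdr5 at day 6 without nt replicate 1, nt replicate 2 or siWdr5 replicate 2 (adjusted p from 0.0812 to 0.166). Fibroblast markers, collagen genes among them, were higher in siWdr5 at day 3 in 8 of 8 and at day 6 in 4 of 8, and their part in these values was not tested.

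*Adm* encodes adrenomedullin, a vasodilator peptide induced by hypoxia. It held 23.7 and 26.0 CPM in nt cells, 42.9 and 49.4 CPM in siWdr5, 62.5 and 59.4 CPM in siBrca1 and 48.1 and 41.1 CPM in siBard1 at day 3. The corresponding levels at day 6 were 18.8 and 15.6 CPM in nt cells, 28.1 and 46.6 CPM in siWdr5, 20.3 and 24.0 CPM in siBrca1 and 24.3 and 16.1 CPM in siBard1. All knockdown libraries of day 3 were above nt, with rises of 0.89 (SE 0.12, adjusted p = 1.51e-04) in siWdr5, 1.30 (SE 0.12, adjusted p = 6.09e-06) in siBrca1 and 0.84 (SE 0.12, adjusted p = 9.61e-04) in siBard1, and siBrca1 was above siWdr5 by 0.40 (adjusted p = 0.0415) and above siBard1 by 0.45 (adjusted p = 0.0204). At day 6 *Adm* was higher in siWdr5 by 1.08 (adjusted p = 0.0160), although its 2 libraries differed widely. The call was lost for siWdr5 at day 6 without nt replicate 1, nt replicate 2 or siWdr5 replicate 2 (adjusted p from 0.0574 to 0.162), and for siBrca1 against siWdr5 without siWdr5 replicate 1 or siWdr5 replicate 2 (adjusted p from 0.0863 to 0.285), and for siBrca1 against siBard1 without siBard1 replicate 2 (adjusted p = 0.177).

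*Car9*, a membrane carbonic anhydrase and a common marker of hypoxia, was low in all libraries. At day 3 it held 1.32 and 1.28 CPM in nt cells, 3.74 and 2.66 CPM in siWdr5, 3.31 and 3.30 CPM in siBrca1 and 1.96 and 2.11 CPM in siBard1, without overlap of nt and the knockdowns. The rises were 1.28 (SE 0.27, adjusted p = 0.00269) in siWdr5 and 1.35 (SE 0.27, adjusted p = 0.00107) in siBrca1, while the value in siBard1, 0.65 (adjusted p = 0.117), did not pass. Day 6 libraries of *Car9* held 0.856 and 1.17 CPM in nt cells, 1.31 and 1.09 CPM in siWdr5, 0.657 and 0.811 CPM in siBrca1 and 1.11 and 0.843 CPM in siBard1. The siBrca1 change was then −0.46, and its difference from day 3 was −1.80 (SE 0.43, adjusted p = 0.0103). Of its exon bases 9.29% overlap *Gm12454* on the other strand.

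*Bnip3* encodes a mitophagy receptor of the outer mitochondrial membrane. Day 3 libraries held 3.30 and 3.90 CPM in nt cells, 5.92 and 6.18 CPM in siWdr5, 5.96 and 7.59 CPM in siBrca1 and 4.55 and 4.35 CPM in siBard1, all knockdowns above nt. Day 6 libraries held 13.4 and 12.8 CPM in nt cells, 7.37 and 7.89 CPM in siWdr5, 11.8 and 10.3 CPM in siBrca1 and 10.1 and 15.6 CPM in siBard1. It rose at day 3 in siWdr5, 0.75 (SE 0.21, adjusted p = 0.0126), and in siBrca1, 0.91 (SE 0.21, adjusted p = 0.00272), and in nt cells to day 6 by 1.87 (SE 0.21, adjusted p = 7.20e-06). At day 6 the siWdr5 libraries were the lowest, with a change of −0.78 (adjusted p = 0.0280). The difference between its changes at day 6 and day 3 was −1.53 (SE 0.29, adjusted p = 0.0198) in siWdr5 and −1.16 (adjusted p = 0.0124) in siBrca1. Leaving out a library removed the call for siWdr5 at day 3 without nt replicate 1, siWdr5 replicate 1 or siWdr5 replicate 2 (adjusted p from 0.0658 to 0.118), and for siWdr5 at day 6 without any 1 of the 4 libraries (adjusted p from 0.0996 to 0.140), and for the difference between days in siWdr5 without any 1 of 6 of the 8 libraries (adjusted p from 0.0662 to 0.0943), and for the difference between days in siBrca1 without nt day 3 replicate 1 or siBrca1 day 3 replicate 2 (adjusted p from 0.0601 to 0.0681). *Gm45507* overlaps 22.3% of the exon bases of *Bnip3* on the other strand, and the strand setting of the counting is not given in the sources used here.

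*Ankrd37*, a HIF-inducible ankyrin repeat gene, rose by 2.22 (SE 0.37, adjusted p = 2.12e-04) in nt cells, from 0.598 and 0.593 CPM at day 3 to 2.78 and 2.77 CPM at day 6. The other libraries held 0.277 to 0.535 CPM at day 3 and 1.79 and 1.24 CPM in siWdr5, 4.13 and 2.56 CPM in siBrca1 and 3.29 and 3.53 CPM in siBard1 at day 6, with no knockdown passing. The day 3 libraries rest on 2 to 8 reads each, and *Lrp2bp* and *Ufsp2* overlap 26.4% of its exon bases on the other strand. The mean log2 CPM of *Ankrd37* over the 16 libraries was 0.06, just above the filter of 0. It reached the test only through its day 6 libraries, so its call between the days is not independent of that filter.

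*Vegfa*, the growth factor of blood vessels, rose in siBrca1 at day 3 by 1.04 (SE 0.23, adjusted p = 0.00209), with 47.5 and 98.3 CPM in its 2 libraries against 34.6 and 31.8 CPM in nt, and in nt cells to day 6 by 1.00 (adjusted p = 0.00145). Its siBrca1 change at day 6 minus that at day 3 was −1.29 (adjusted p = 0.00967). The 2 siBrca1 libraries of day 3 differed more from each other than any other pair of the gene. *Ndrg1*, a stress-induced gene, rose in siWdr5 by 0.61 (adjusted p = 0.0110), from 9.50 and 11.5 CPM in nt to 15.5 and 16.3 CPM, and was lower in siBrca1 than in siWdr5, at −0.70 (adjusted p = 0.0108). The *Ndrg1* calls were lost for siWdr5 at day 3 without nt replicate 1, siWdr5 replicate 1 or siWdr5 replicate 2 (adjusted p from 0.0586 to 0.138), and for siBrca1 against siWdr5 without siWdr5 replicate 1 or siWdr5 replicate 2 (adjusted p from 0.0818 to 0.102).

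Levels were compared between genes only per kilobase of exon (CPM per kb). On that scale *Gapdh* stood at 171 ± 9.97 CPM per kb (SD, n = 2) in nt cells at day 3, *Pkm* at 340.2 ± 3.82, *Aldoa* at 217 ± 2.80 and *Ldha* at 248 ± 0.780, all abundant enzymes of the main pathway. The transaldolase *Taldo1* stood at 40.9 ± 1.75, *Hif1a* at 17.6 ± 0.883, *Epas1* at 2.85 ± 0.0580, *Slc2a3* at 2.32 ± 0.236 and *Car9* at 0.564 ± 0.0143 CPM per kb. At day 6 *Slc2a3* had reached 33.9 ± 8.84 and *Slc2a1* 61.0 ± 10.5 CPM per kb.

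For isoenzymes and paired carriers the ratios of these levels are given without a test. *Hk2* over *Hk1* had a mean log2 ratio of 2.10 in nt at day 3, 1.24 in siWdr5, 0.79 in siBrca1 and 1.21 in siBard1, and 0.49 in nt at day 6. The knockdown means of day 3 thus lay between nt of day 3 and nt of day 6. *Ldha* over *Ldhb* went from 3.78 in nt to 3.09, 2.52 and 2.99 in the same order, and was 3.01 in nt at day 6. For *Pfkl* over *Pfkp* the values were −0.28, 0.69, 0.18 and 0.17 at day 3 and 0.74 in nt at day 6. The sign of such a ratio depends on the length used, here all annotated exon bases of a gene (6.675 kb for *Pfkl* and 13.401 kb for *Pfkp*). In CPM *Pfkp* was the higher of the pair in every group of day 3. It was also higher in nt at day 6, with means of 80.5 and 66.5 CPM, so no switch of the main isoform is shown. *Pfkm* over *Pfkp* went from −0.02 in nt to 0.98 in siBrca1.

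The carriers and the kinases behaved differently. *Slc2a1* over *Slc2a3* was 3.04 in nt, 5.08 in siWdr5, 3.84 in siBrca1 and 3.37 in siBard1 at day 3, and 0.86 in nt at day 6. *Slc16a1* over *Slc16a3* dropped from 6.96 to 3.75 in nt cells and was 5.68 in siWdr5 at day 6. *Pdk1* over *Pdk3* was −1.24 in nt and −3.02, −2.76 and −2.60 in the knockdowns at day 3, away from the nt value of day 6 (−0.20). *Eno1* over *Eno2* was 5.34 in nt at day 3, 3.89 in siBrca1 at day 3 and 3.82 in nt at day 6. *Aldoa* over *Aldoc* was 8.37 and 6.50 in nt at the 2 days, and *Pfkfb3* over *Pfkfb4* 1.62 and 1.11, with 0.34 in siBrca1 at day 3. *P4ha1* over *P4ha2* lay between 1.16 (siBrca1 at day 3) and 2.30 (nt at day 6), and *Hif1a* over *Epas1* was lowest in siWdr5 at day 6, at 1.35, against 2.31 in nt. The plot of 6 of these ratios shows the spread of the libraries.

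**Figure D4:**
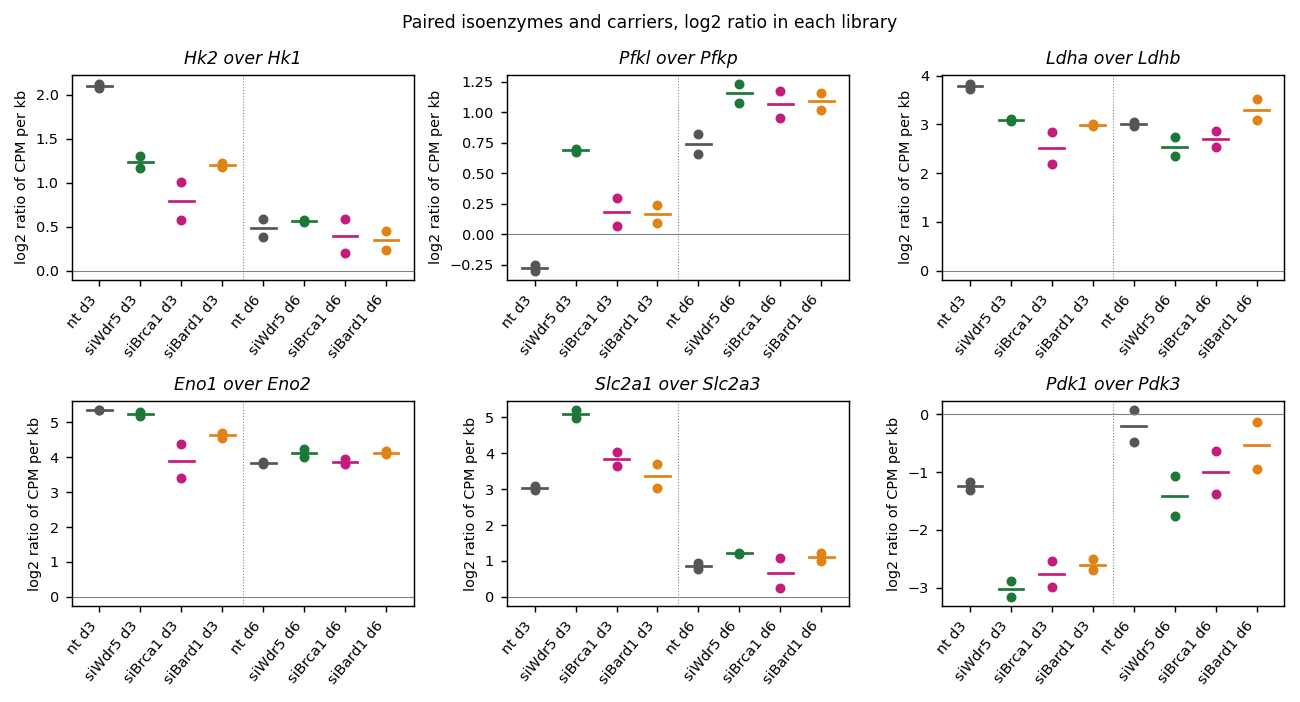
Points give the log2 ratio of CPM per kb of 6 gene pairs in each library, and bars the mean of the 2 libraries of a group. The ratio of *Hk2* over *Hk1* is highest in nt at day 3 (2.10), and *Slc2a1* over *Slc2a3* is highest in siWdr5 at day 3 (5.08).

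At day 6, when the targeted transcripts no longer passed against nt, siWdr5 cells had 6 members higher and 8 lower than nt cells, against 16.1% and 5.7% of all genes. The median change was 0.10 for the members and 0.08 for all genes. The lowered members were *Slc16a3*, *Aldoc*, *Egln3*, *Slc2a3*, *Bnip3*, *Pdk1*, *Pgk1* and *Slc2a1*, all of them in the list of 22 HIF-inducible members, of which 8 were lower and 4 higher. The raised ones were *Epas1*, *Adm*, *P4ha2*, *Hk2*, *Hk1* and *P4ha1*. These 14 calls became 0 without siWdr5 replicate 2, 1 without nt replicate 2 and 5 without nt replicate 1, and none passed in every refit. Quantile normalization gave 4 higher and 10 lower. Epithelial markers were lower in siWdr5 at day 6 in 4 of 6, summing to 488 and 362 CPM against 563 and 762 CPM in nt, and their part was not tested. Of the 5 genes of RNA carried over after ribosomal depletion 3 were lower and 0 higher in siWdr5 at day 6, with a median change of −2.46. They summed to 14596 and 11720.0 CPM against 23008 and 14530.3 CPM in nt. Nearly all of these sums was *Rn7sk*, and the median change was that of another gene. The part of these 5 genes was not tested either.

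siBrca1 and siBard1 had 0 members passing at day 6 in either direction, where 0% and 0% of all genes were higher and lower in siBrca1 and 0.0784% and 0% in siBard1. At an unadjusted p under 0.05 the limma fit had 4 members in siBrca1, all lower, and 6 in siBard1, of which 2 were higher, where 8.01% and 13.6% of all genes were below it, and limma-voom on recovered reads had 0 adjusted calls in both. The members with the lowest adjusted p reached 0.478 in siBrca1 and 0.152 in siBard1.

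The change at day 6 was compared with the change at day 3 in a single model of the 16 libraries. For siWdr5, 3 members had a higher and 2 a lower change at day 6, against 3.4% and 1.03% of all genes: *Slc2a3*, at 1.14 (adjusted p = 0.0374), *Epas1* and *Hk2* were the former, *Slc16a3* and *Bnip3* the latter. These 5 calls became 0 to 3 when a library was left out: 3 without nt replicate 2 or siWdr5 replicate 1 of day 6, and 0 without any other. That of *Slc2a3* was lost for the difference between days in siWdr5 without any 1 of 7 of the 8 libraries (adjusted p from 0.0803 to 0.141). For siBrca1, 3 members had a higher and 10 a lower change at day 6, against 10.3% and 10.3%. Of the 10, 9 had passed as higher at day 3, namely *Car9*, *Eno2*, *Taldo1*, *Vegfa*, *Bnip3*, *P4ha2*, *Adm*, *Hk1* and *Pfkm*, whereas *Pdk1*, *Slc16a1* and *Hk2* had been lower at day 3. *Slc2a1*, which passed at neither day, was the other one, at −0.70 (adjusted p = 0.0358). The *Slc2a1* call was lost for the difference between days in siBrca1 without any 1 of 5 of the 8 libraries (adjusted p from 0.0766 to 0.178). The 13 calls became 4 without siBrca1 replicate 2 of day 3, 5 without nt replicate 1 of day 3 and 7 without nt replicate 1 of day 6, and 9 to 15 without any other library. Those of *Car9*, *Eno2*, *Taldo1* and *Vegfa* passed in every refit. Of the 7 proliferation markers 7 had a higher change at day 6 than at day 3 in siBrca1, and their part was not tested.

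For siBard1 no member passed, against 0.0214% and 0.0285% of all genes. At an unadjusted p under 0.05 there were 13, of which 9 were higher, against 19.2% of all genes, and limma-voom had 0 adjusted calls. The plot of the siBrca1 changes at both days shows the 13 members away from the diagonal.

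**Figure D5:**
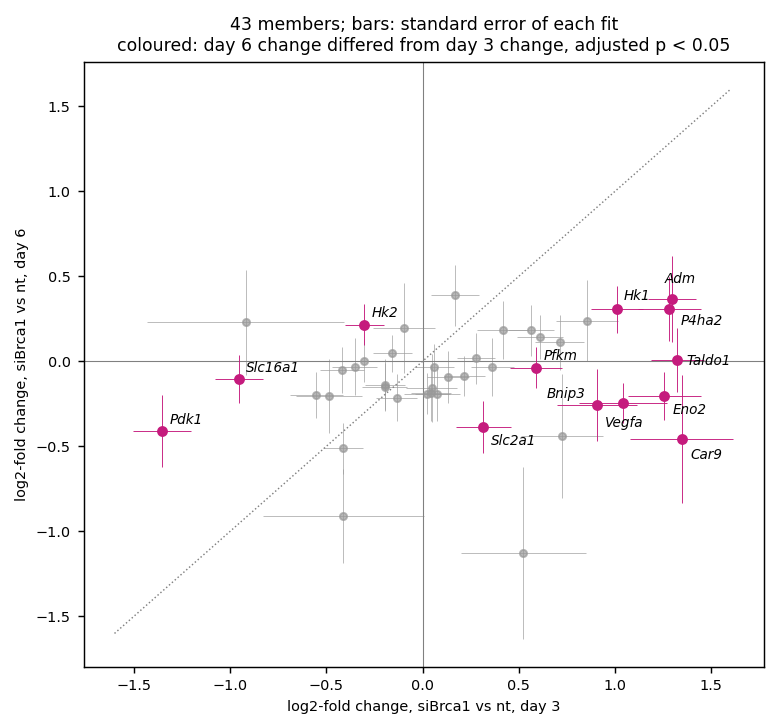
Each of the 43 members is placed by its log2-fold change in siBrca1 against nt at day 3 (x axis) and day 6 (y axis), with bars for the standard error of each fit, and the dotted line marks equal changes. The 13 coloured members are those whose change differed between the days, with *Car9* at 1.35 and −0.46 and *Pdk1* at −1.35 and −0.41.

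The knockdowns were also compared with each other at day 3. siBrca1 had 9 members higher and 3 lower than siWdr5, against 10.2% and 5.47% of all genes, and the 12 calls became 3 and 4 without siWdr5 replicate 2 and 1, 8 without siBrca1 replicate 2 and 18 without siBrca1 replicate 1. *Slc2a3*, *Eno2* and *Taldo1* passed in every refit. siBrca1 had 11 higher and 2 lower than siBard1, against 13.1% and 8.33%, and the 13 calls became 0 without siBard1 replicate 2, 5 without siBrca1 replicate 2 and 21 without siBrca1 replicate 1. In both comparisons 3 of the 4 pentose phosphate genes were higher in siBrca1, though not the same 3. They were *G6pdx*, *Pgd* and *Taldo1* against siWdr5, and *Pgd*, *Taldo1* and *Tkt* against siBard1. Of these calls only that of *Taldo1* against siWdr5 passed in every refit. siWdr5 had 1 higher and 1 lower than siBard1, *Pfkl* and *Slc2a3*, against 4.85% and 3.78%. After centring each library on its median gene this became 8 higher and 1 lower, and the 2 calls became 3 without siBard1 replicate 1 and 1 without any other library of the pair.

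Genes of the same pathways outside the members were taken from a separate list. Of 31 tested genes of glycolysis and pyruvate metabolism, 5 were higher and 3 lower in siWdr5 at day 3, 11 and 4 in siBrca1, and 2 and 1 in siBard1. Over all genes 18.3% and 16.8%, 25.4% and 21.8%, and 8.67% and 5.87% were higher and lower in the same order, which also serve for the lists that follow. *Pdk4*, a pyruvate dehydrogenase kinase typical of starved muscle, changed most in each: 2.04 (adjusted p = 6.10e-06) in siWdr5, 2.37 (adjusted p = 1.39e-06) in siBrca1 and 1.42 (adjusted p = 4.40e-04) in siBard1. *Pdk1* fell in the same 3 comparisons. The muscle enolase *Eno3* rose in siBrca1 by 1.55 (adjusted p = 6.22e-05). Of the 5 muscle markers 3 had a row. Of these 3 markers 2 were higher in each knockdown at day 3 and 1 was lower in siBrca1. The muscle markers summed to 43.3 and 54.1 CPM in nt, 188 and 191 CPM in siWdr5, 252 and 277 CPM in siBrca1 and 146 and 115 CPM in siBard1. Their part was not tested. Of 9 tested genes around the pentose phosphate pathway, 1 was higher and 2 lower in siWdr5, 2 and 2 in siBrca1 and 1 and 0 in siBard1. *H6pd*, the hexose 6-phosphate dehydrogenase of the endoplasmic reticulum, rose by 0.52 (adjusted p = 0.00450) in siWdr5, 1.00 (adjusted p = 2.59e-05) in siBrca1 and 0.39 (adjusted p = 0.0416) in siBard1. *Prps1*, which makes the ribose donor of nucleotides, was lower in siWdr5, at −0.66 (adjusted p = 0.00394), and in siBrca1, at −1.18 (adjusted p = 3.95e-05).

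Of 34 tested further hypoxia genes, 7 were higher and 4 lower in siWdr5, 11 and 4 in siBrca1, and 3 and 0 in siBard1 at day 3. In nt cells from day 3 to day 6 there were 13 and 5, where 19% and 27.1% of all genes were higher and lower. *Plin2*, a lipid droplet protein, rose by 1.67 (adjusted p = 1.34e-05) in siBrca1 and by 1.62 (adjusted p = 4.33e-05) in nt cells to day 6. *Angptl4*, an inhibitor of lipoprotein lipase, rose in nt cells by 2.08 (adjusted p = 9.46e-07), and *Ak4*, a mitochondrial adenylate kinase, fell there by 1.60 (adjusted p = 8.31e-04) and in siBrca1 at day 3, where it fell by 1.95 (adjusted p = 2.64e-04). *Arnt2*, a paralog of *Arnt*, rose in siWdr5 by 0.93 (adjusted p = 2.16e-04) and in siBard1 by 0.54 (adjusted p = 0.0177).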

How the data were processed

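RNA of 16 libraries was sequenced after ribosomal depletion. The submitters' processing notes name STAR 2.5.2b and edgeR 3.20.9, and the read counter, its strand setting and the annotation version are not given in the sources used here. The authors deposited log2 CPM values per gene, with a small prior count, and CPM is printed as 2 to the power of the deposited value. Whole reads were recovered from the steps of these values (tolerance 0.01) and gave library totals of 11169738 to 26832534 reads. The effective sizes behind the deposited CPM were 0.925 to 1.118 times these totals, so the values carry a scaling factor for each library. A floor of 3 reads covers counting error only.

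All rows whose log2 CPM averaged 0 or more were tested (14028) with limma 3.58.1 in R 4.3.3 (empirical Bayes with a mean-variance trend, Benjamini-Hochberg adjustment over all genes tested, threshold 0.05). Comparisons within a day used a fit to its 8 libraries, and all 16 served for the nt time comparison and for differences between days. The scripts were tested on simulated data. The 2 libraries of a group are from independent experiments. The spread behind each p-value was estimated per gene over all groups in the fit and moderated, so it is not that of the compared groups alone.

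The members and gene lists were chosen with earlier results of these data known, and no list was tested as a set. Values in every library are given for the 4 largest passing rises and 4 largest passing falls of each knockdown at day 3, the 5 largest of each in nt cells between days, the 3 largest passing changes of each knockdown at day 6 and of each difference between days, and the isoenzyme and paralog pairs. Of genes outside the members up to 3 per list could be named, by the largest passing change. Promoter windows are from RefSeq (GRCm38.p6) and exon overlaps from GENCODE vM21, and the notes name mm10 and GRCm38 as the build. The number of per-sample columns left unused is 0. Alternatives changed the filter, trend, scaling, libraries in the fit, a replicate block, limma-voom on recovered reads and each library in turn.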

Additional observations from a re-analysis of the deposited data

Results flagged for a closer look

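For 5 members the siWdr5 change relative to nt differed between day 6 and day 3 by the interaction term of the limma fit over 16 libraries. Of all genes 4.43% differed in the same way. The differences on the log2 scale were −1.53 for *Bnip3*, 0.82 for *Epas1*, 0.79 for *Hk2*, −2.52 for *Slc16a3* and 1.14 for *Slc2a3*, at adjusted p from 0.0198 to 0.0446. The first and the fourth were lower at day 6 relative to day 3, and *Bnip3* had passed in opposite directions at the 2 days. None of these 5 calls passed in every refit. The *Bnip3* calls of both days were also lost when single libraries were left out, at day 6 with any library of the pair.

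In siBrca1 the change differed between the days for 13 members, where it did so for 20.5% of all genes. It was lower at day 6 for the hypoxia-inducible *Adm* (−0.93), *Bnip3* (−1.16), *Car9* (−1.80), *P4ha2* (−0.97) and *Vegfa* (−1.29), for the glycolytic *Eno2* (−1.46), *Hk1* (−0.70) and *Pfkm* (−0.63), for *Slc2a1* (−0.70) and for *Taldo1* (−1.31). It was higher at day 6 for *Hk2* (0.52), *Pdk1* (0.95) and *Slc16a1* (0.85). Adjusted p ranged from 0.00294 for *Eno2* to 0.0358 for *Slc2a1*. Only the calls of *Car9*, *Eno2*, *Taldo1* and *Vegfa* passed in every refit. No gene passed against nt in siBrca1 at day 6 itself.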

How the results depend on the processing

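Over 27 settings, 8126 single-gene values kept their side of the threshold, 422 lost a call and 141 gained one. Direction was compared only where a value passed in the original fit or in the alternative. Among these 1 changed direction: *Pkm* in siBrca1 at day 3, at −0.32 after quantile normalization (adjusted p = 0.0308). The cause was not tested. Counts of passing members moved by over 1.5 times as follows. With a log2-fold change above 1 also required they were 4, 8 and 0 in siWdr5, siBrca1 and siBard1 at day 3, 6 in siWdr5 at day 6, 2, 1 and 1 for siBrca1 against siWdr5, siBrca1 against siBard1 and siWdr5 against siBard1, 8 in nt cells between days, and 3 and 5 for the differences between days in siWdr5 and siBrca1. Without a filter they were 4 in siBard1, and 7, 7 and 1 between knockdowns. Without the trend they were 3 in siBard1, 5 in siWdr5 at day 6, 6, 0 and 1 between knockdowns, and 0 and 8 for the differences in siWdr5 and siBrca1. With all 16 libraries they were 6 and 1 in siBard1 at day 3 and day 6, 7 for siBrca1 against siWdr5 and 1 for siWdr5 against siBard1. With only the libraries compared they were 5 for siBrca1 and 9 for siWdr5 against siBard1, and 10 and 3 for the differences in siWdr5 and siBard1. Centring gave 9 for siWdr5 against siBard1 and 2 for the siWdr5 difference, quantile normalization 2 and limma-voom 3 for the latter. Centring moved the median of all genes for that difference from 0.12 to −0.02.

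With the replicate number as a replicate block the siBard1 difference between days had 1 member, and every other count was within 1.5 times of the count without it. Same-numbered libraries deviated together by a mean correlation of 0.02 at day 3 and 0.11 at day 6, with up to 0.26 at day 6. A low mean over all genes cannot show whether the numbers pair the libraries. *Rn7sk*, an RNA of the list carried over after ribosomal depletion, was higher in replicate 1 than in replicate 2 in every group.

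Leaving out each library in turn gave 10 to 13 members in siWdr5, 17 to 29 in siBrca1 and 3 to 6 in siBard1 at day 3, 0 to 14 in siWdr5 at day 6, 3 to 18 for siBrca1 against siWdr5, 0 to 21 for siBrca1 against siBard1, 1 to 3 for siWdr5 against siBard1, 18 to 20 in nt cells, and 0 to 3 and 4 to 15 for the differences in siWdr5 and siBrca1. The *Bard1* transcript in siBard1 stood at −0.62 without a filter (adjusted p = 0.118), without the trend (0.130) and with all 16 libraries (0.0647), at −0.60 after centring (0.0523), and at −0.72 to −0.52 with a library left out.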

Other observations

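Other genes of these pathways moved in single comparisons. At day 6 siWdr5 cells had 4 of 34 further hypoxia genes higher and 4 lower than nt cells, where 16.1% and 5.7% of all genes were, with *Rcor2*, a corepressor of neural and pluripotent cells, at −1.28 (adjusted p = 0.00362). In nt cells from day 3 to day 6 the 31 genes of glycolysis and pyruvate metabolism outside the members had 3 higher and 4 lower, and the 9 genes around the pentose phosphate pathway 2 higher and 3 lower, beside 19% and 27.1% of all genes. RNA carried over after ribosomal depletion (5 genes) had 1 higher and 2 lower in siWdr5, 1 and 2 in siBrca1 and 2 and 2 in siBard1 at day 3, and 0 and 3 in siWdr5, 0 and 0 in siBrca1 and 0 and 0 in siBard1 at day 6.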
